A study of Gallus gallus with 32 samples.

Results

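Mitochondrial ribosomal proteins build the ribosome that works inside mitochondria, and their transcripts were followed in the chicken pituitary over line and age. A member is a gene whose symbol in the array platform's probe table begins with MRPL or MRPS and a digit, and a probe was kept when it gave a value on at least 24 of the 32 arrays. The table held 54 such probes for 37 genes. Of these, 43 probes for 32 genes were tested, among 14688 tested probes for 5738 named genes. By symbol, 16 of the 32 genes belong to the large subunit (MRPL) and 16 to the small subunit (MRPS). The other 11 probes were usable on 0 to 23 arrays, and through them MRPL24, MRPL33, MRPL38, MRPL58 and MRPS2 had no tested probe. For 22 genes 1 probe was tested and for 10 genes several, and the probes of such a gene are lettered a, b and c from the brightest.

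The mitochondrial ribosome translates the few proteins that are encoded in mitochondrial DNA, all of them subunits of the inner membrane complexes of oxidative phosphorylation. Its own proteins are encoded in the nucleus, made in the cytosol and imported. Some descend from bacterial ribosomal proteins, and others are found in mitochondrial ribosomes only. By symbol, 19 of the tested genes fall in the first class and 13 in the second. MRPS18A carries a small subunit name but sits in the large subunit in mammals, and MRPS36 is now known in mammals as a subunit of the oxoglutarate dehydrogenase complex. By symbol both are still counted here as small subunit genes, and MRPS36 is among the 13.

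RNA came from pituitary glands of individual chickens. Birds of a Fat line and of a Lean line had been bred for high or low abdominal fat over 7 generations and were raised as broilers are. They were 1, 3, 5 or 7 weeks old, which makes 8 groups of line and age with 4 arrays each, called biological replicates in the labels. No treatment set the groups apart, and the birds' sex is not given in the sources used here. Each spotted cDNA array compared the amplified RNA of a sample, labelled with Cy3, with a pool of all 32 RNAs, labelled with Cy5. Every level below is a log2 ratio of sample over pool, normalized within its array. Sample and pool kept the same dye on every array, so for a probe 0 need not be the pool's own level. MRPS9 had means of -0.31, -0.35, -0.36 and -0.32 at weeks 1, 3, 5 and 7. Those of MRPS36 were 0.27, 0.26, 0.26 and 0.23. Between 14008 and 16134 spots were usable per array.

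Replicate 2 of week 7 was read from 1 scan in both lines. The lean and fat files shared area and score at 54.4% of spots, against at most 1.98% in any other pair, so neither was used and week 7 rests on 3 arrays per line. At week 7, lean replicate 3 and fat replicate 4 also stood apart. Their log2 ratios over all tested probes had an SD of 0.693 and 0.565, against 0.239 to 0.426 on the other 28 arrays used. The counts of members called from week 1 to week 7 and the changes of the probes past the threshold over both lines are therefore also given without this pair. For probes that did not pass they are given in part, and for changes within 1 line they are not. All 9 measured markers of pituitary hormone cells were usable on at least 31 arrays. All tests were moderated tests of limma on 30 arrays. Single differences were tested two-sided, and the line by age test and the joint test of ages were F tests. In each, p was adjusted by Benjamini-Hochberg over all tested probes, with a threshold of 0.05. The probes called are set beside the share of all tested probes called in the same comparison.

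The median level of the members was small in every group. Normalization within each array keeps the median over all tested probes small too, at -0.02 to 0.04 on the arrays used. On single arrays the median over the members ran from -0.03 to 0.04 at week 1 in both lines. At week 7 it ran from -0.08 to -0.00 in the lean line and from -0.13 to -0.05 in the fat line. Between arrays of a group the members had a median residual SD of 0.171, against 0.218 for all tested probes. The steadiest probe was MRPL19 probe a, of a large subunit protein, at 0.101, and the most variable was MRPS6 probe b, of a small subunit protein, at 0.476.

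**Figure D1:**
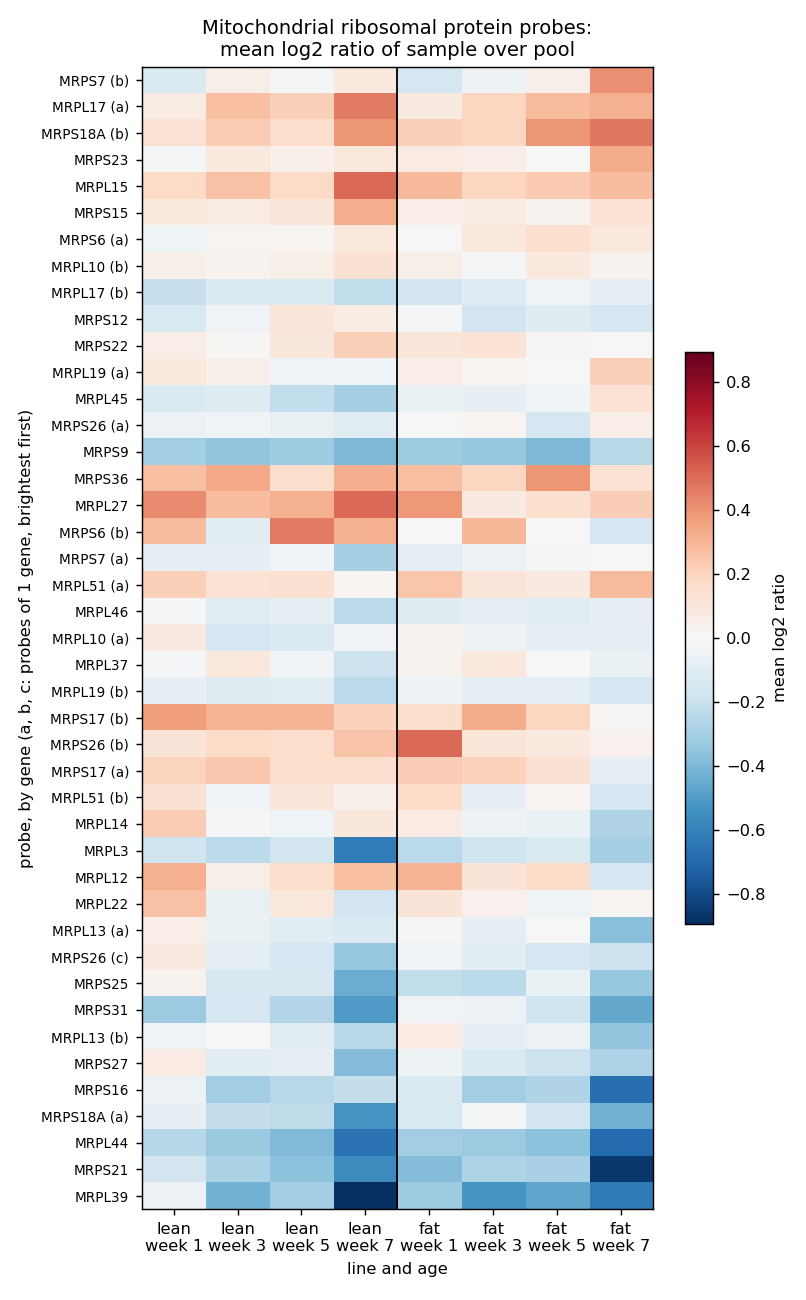
Mean log2 ratio of sample over pool for each of the 43 tested probes (rows, ordered by the change from week 1 to week 7) in the 8 groups of line and age (columns). Each cell is the mean of up to 4 arrays, or 3 at week 7, red for a positive and blue for a negative mean. MRPL39, MRPS21 and MRPL44 end the order with their lowest levels at week 7, and no block of columns separates the lines.

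The first comparison asked whether the ribosome's transcripts differ by line. None of the 43 probes passed limma's test over all ages, where 102 of all tested probes did (0.694%). At an unadjusted p under 0.05 the count was 3 of 43, or 6.98%, against 16.1% of all tested probes. Of the members, 22 were lower in fat birds, or 51.2%, against 46.2% of all tested probes, and 21 were higher. The median difference, fat minus lean, was -0.00 on the log2 scale, against 0.01 over all tested probes. Differences ran from -0.20 to 0.18, and a member's 95% confidence interval reached a median of 0.13 to either side of its value. At that width an observed difference under 0.13 could not be told from 0 for a typical member, even before p was adjusted. The arrays of the 2 lines overlapped for every member, where 0.0136% of all tested probes had lines that did not.

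The largest value in the direction of the fat birds was that of MRPL45, a large subunit protein that ties the ribosome to the inner membrane. Its 4 lean arrays at week 5 read -0.02, -0.45, -0.15 and -0.27, and its fat arrays read 0.04, 0.14, -0.12 and -0.15. At week 7 the lean arrays read 0.05, -0.67 and -0.27 and the fat arrays 0.14, -0.18 and 0.43. Lean and fat arrays overlapped at both ages, and the lowest lean and the highest fat value at week 7 came from the pair of arrays that stood apart. Over all ages MRPL45 differed by 0.18 (SE 0.07, adjusted p = 0.217 with limma), and by 0.10 without that pair.

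The other large values in either direction, taken by the brightest probe of a gene, did not pass either. MRPS31, a small subunit protein found in mitochondrial ribosomes only, differed by 0.13 (adjusted p = 0.438 with limma), MRPL3 by 0.09 and MRPS7 probe a by 0.08. MRPS18A probe a and MRPS23 followed at 0.07 each. On the other side stood MRPL27 at -0.17, MRPL14 at -0.14, MRPS16 at -0.14, MRPS12 at -0.11, MRPS21 at -0.11 and MRPL12 at -0.09. MRPS12 belongs to the decoding centre of the small subunit, and MRPL12 forms the stalk that receives translation factors. The smallest adjusted p among these 6 was that of MRPL14, at 0.265 with limma. Of the dimmer probes, MRPS6 probe b had -0.20, the lowest value of any member, with an SE of 0.17, and MRPS17 probe b had -0.13 (adjusted p = 0.542 and 0.324 with limma).

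The lines were then set side by side at each age. No member passed at week 1, 3 or 5, where no probe passed at all (0%), nor at week 7, where 3 probes did (0.0204%). At an unadjusted p under 0.05 there were 1, 0 and 0 members at weeks 1, 3 and 5, against 3.63%, 3.16% and 3.89% of all tested probes. At week 7 there were 7, or 16.3% of the members, against 21.0% of all tested probes. The smallest p at week 7 belonged to MRPL12, whose lean arrays read 0.06, 0.52 and 0.22 and whose fat arrays read -0.13, 0.02 and -0.37. These lean and fat arrays did not overlap, and the highest lean and the lowest fat value came from the pair that stood apart. The share of all tested probes whose lines did not overlap at week 7 is not given here. The difference was -0.43 (SE 0.14, adjusted p = 0.123 with limma), and -0.19 without that pair. Without the pair no member had an unadjusted p under 0.05 at week 7, against 4.31% of all tested probes. At week 1 the same gene read 0.03 to 0.45 in lean and 0.19 to 0.38 in fat birds. The test of whether the line difference depends on age called no member and no probe (0%). No member had an unadjusted p under 0.05 there, against 4.34% of all tested probes, and the smallest was that of MRPL12 at 0.051.

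Files were dated by a day in their headers, whose meaning is not given in the sources used here. Of 8 such days, 6 held both lines at an age. Within these days the members' median difference, fat minus lean, was 0.05, -0.03, -0.01, 0.01, -0.03 and 0.00, so neither line was ahead throughout.

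**Figure D2:**
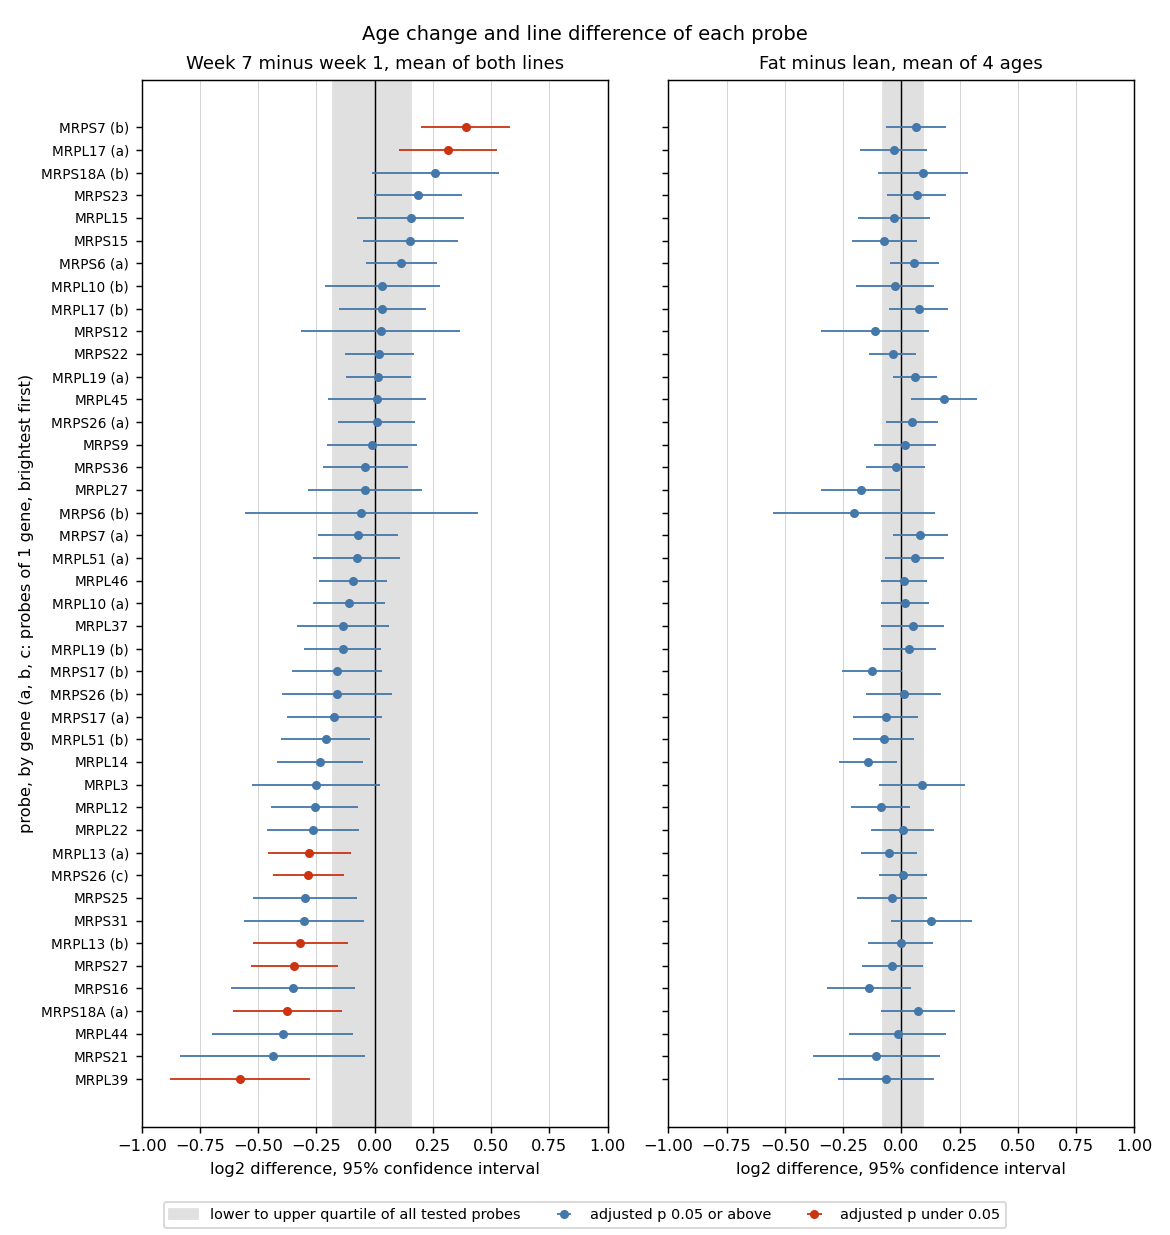
Change from week 1 to week 7 (left, mean of both lines) and difference fat minus lean (right, mean of 4 ages) of each of the 43 probes on the log2 scale, with 95% confidence intervals. Grey bands run from the lower to the upper quartile of all tested probes. On the left 6 probes below 0 and 2 above 0 are marked as past the threshold; on the right none is.

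Age was the second comparison. From week 1 to week 7, 8 of the 43 member probes passed the test, or 18.6%, against 15.8% of all tested probes, so the share of members that changed lay near the background. At an unadjusted p under 0.05 it was 17 of 43, or 39.5%, against 32.6%. The 6 that fell are 14.0% of the members against 6.96% of all tested probes, and the 2 that rose are 4.65% against 8.86%. Passing or not, 29 of the 43 probes were lower at week 7, or 67.4%, against 53.0% of all tested probes. The members' median change was -0.11, against -0.02 over all tested probes. With the brightest probe standing for a gene, 5 of 32 genes passed, or 15.6%, against 17.6% of all tested genes. Of these, 4 fell (12.5%, against 8.21%) and 1 rose (3.12%, against 9.38%).

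The counts of probes past the threshold fell without the pair of week 7 arrays that stood apart. Leaving the pair out also left week 7 with fewer arrays. Whether the values of the pair or the number of arrays lowered the counts was not tested. Without both arrays of the pair, 1 of the 43 probes passed, MRPS7 probe b, against 4.17% of all tested probes. Then 33 of the 43 were lower, against 53.7% of all tested probes, and the members' median was -0.08 against -0.02. Without lean replicate 3 alone, or without fat replicate 4 alone, 4 passed in each case, against 7.30% and 6.98% of all tested probes. In bulk RNA such as this, fewer cells of a type and less RNA per cell cannot be told apart.

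Among large subunit proteins, MRPL39 had the largest change of any member. It is found in mitochondrial ribosomes only. Its lean arrays read -0.01, -0.46, 0.00 and 0.26 at week 1, and -0.93, -1.17 and -0.57 at week 7. Its fat arrays read -0.30, -0.02, -0.67 and -0.27 at week 1, and -0.30, -0.66 and -0.94 at week 7. Lean birds at week 7 lay below every lean bird of week 1, while the fat arrays of these ages overlapped. Here and below, such gaps within 1 line only describe probes that the age test had picked on these same values. The share of all tested probes with such a gap is not given. A gap in 1 line shows no difference between the lines, and the test of line by age called no member. The levels at weeks 3 and 5 lay between, with medians of -0.43 and -0.39. MRPL39 fell by 0.58 (SE 0.15, 1.49-fold, adjusted p = 0.0103 with limma). Without the pair the change was -0.43 (adjusted p = 0.147).

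MRPL13, a homolog of a bacterial protein of the large subunit, was read by 2 probes that gave like values. Probe a read 0.08, 0.17, 0.17 and -0.19 in lean and 0.08, 0.04, -0.05 and -0.03 in fat birds at week 1. At week 7 it read -0.13, -0.28 and 0.03 in lean and -0.19, -0.15 and -0.78 in fat birds. The value of fat replicate 4, -0.78, lay far below the others, the fat arrays of these ages did not overlap, and the lean arrays did. Probe a fell by 0.28 (SE 0.09, adjusted p = 0.0299 with limma) and probe b by 0.32 (SE 0.10, adjusted p = 0.0313). Without the pair of arrays the changes were -0.14 and -0.12 (adjusted p = 0.328 and 0.436). Over the 30 arrays the residuals of both probes correlated at 0.613, the highest value among the 12 pairs of probes of 1 gene.

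MRPL17, another homolog of a bacterial large subunit protein, rose on probe a only. This probe read 0.12, -0.02, 0.15 and 0.01 in lean and -0.05, -0.36, 0.42 and 0.31 in fat birds at week 1. Its values at week 7 were 0.50, 0.60 and 0.28 in lean and 0.18, 0.35 and 0.41 in fat birds. All lean values of week 7 were above those of week 1, and the fat values overlapped. The change was 0.31 (SE 0.10, adjusted p = 0.0391 with limma), and 0.25 without the pair (adjusted p = 0.258). Probe b is listed under the same sequence accession, and its change was 0.03 (adjusted p = 0.831 with limma). The residuals of the 2 probes correlated at -0.416 across arrays, the lowest of the 12 pairs.

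MRPL12, the stalk protein, lay just outside the threshold. It read from 0.03 to 0.45 at week 1, with a median of 0.34, and from -0.37 to 0.52 at week 7, with a median of 0.04. Its medians at weeks 3 and 5 were 0.08 each, below nearly all arrays of week 1. The change from week 1 to week 7 was -0.26 (SE 0.09, adjusted p = 0.0517 with limma), and -0.27 without the pair (adjusted p = 0.0966). MRPL44, which resembles a double-strand ribonuclease, had a change of -0.40 (adjusted p = 0.0668), and MRPL22, a protein of the exit tunnel, had -0.26 (adjusted p = 0.0577). Without the pair these were -0.18 and -0.21 (adjusted p = 0.582 and 0.315). MRPL15 had the largest rise that did not pass among large subunit genes, at 0.16, and -0.02 without the pair.

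Among small subunit proteins, MRPS27 and MRPS26 fell, and both are found in mitochondrial ribosomes only. MRPS27, an RNA-binding protein with pentatricopeptide repeats, read 0.22, -0.05, 0.21 and -0.10 in lean and -0.07, 0.11, -0.20 and -0.03 in fat birds at week 1. At week 7 it read -0.21, -0.72 and -0.22 in lean and -0.11, -0.50 and -0.22 in fat birds. All 3 lean values of week 7 were below those of week 1, and the fat values overlapped. MRPS27 fell by 0.34 (SE 0.09, 1.27-fold, adjusted p = 0.0141 with limma). The change was -0.28 without the pair of arrays (adjusted p = 0.0896).

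MRPS26 fell on 1 of its 3 probes. Probe c read 0.06, 0.03, 0.03 and 0.19 in lean and 0.09, 0.03, -0.05 and -0.20 in fat birds at week 1. At week 7 it read -0.31, -0.37 and -0.35 in lean and -0.07, -0.26 and -0.21 in fat birds. The lean arrays of these ages did not overlap, and the fat arrays did. Its medians went from 0.03 at week 1 to -0.06, -0.13 and -0.28 at weeks 3, 5 and 7. Probe c fell by 0.28 (SE 0.07, adjusted p = 0.0115 with limma), and by 0.27 without the pair of arrays, where the adjusted p was 0.0584. Probes a and b gave 0.01 and -0.16 (adjusted p = 0.954 and 0.333).

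MRPS18A, 1 of several vertebrate homologs of a single bacterial protein, fell on its brighter probe. Probe a read -0.01, -0.19, 0.12 and -0.20 in lean and -0.06, 0.04, -0.37 and -0.15 in fat birds at week 1. Its values at week 7 were -0.25, -0.95 and -0.38 in lean and -0.17, -0.87 and -0.26 in fat birds. The values -0.95 and -0.87 came from the pair of arrays that stood apart. The lean arrays of these ages did not overlap, and the fat arrays did. The probe fell by 0.37 (SE 0.11, adjusted p = 0.0287 with limma). Without the pair the change was -0.16 (adjusted p = 0.415). Probe b went the other way, at 0.26 (adjusted p = 0.173).

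MRPS7, a homolog of a bacterial protein that binds ribosomal RNA in the head of the small subunit, rose on probe b. This probe read -0.18, -0.17, -0.29 and 0.11 in lean and -0.03, -0.43, 0.03 and -0.19 in fat birds at week 1. At week 7 it read 0.24, -0.02 and 0.05 in lean and 0.14, 0.40 and 0.68 in fat birds. The fat arrays of these ages did not overlap, and the lean arrays did. The change was 0.39 (SE 0.09, 1.31-fold, adjusted p = 0.0068 with limma), and 0.35 without the pair of arrays (adjusted p = 0.0377). Probe a gave -0.07 (adjusted p = 0.575). With a separate loess curve for each grid block of an array, the change of probe b was 0.12 (adjusted p = 0.301).

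**Figure D3:**
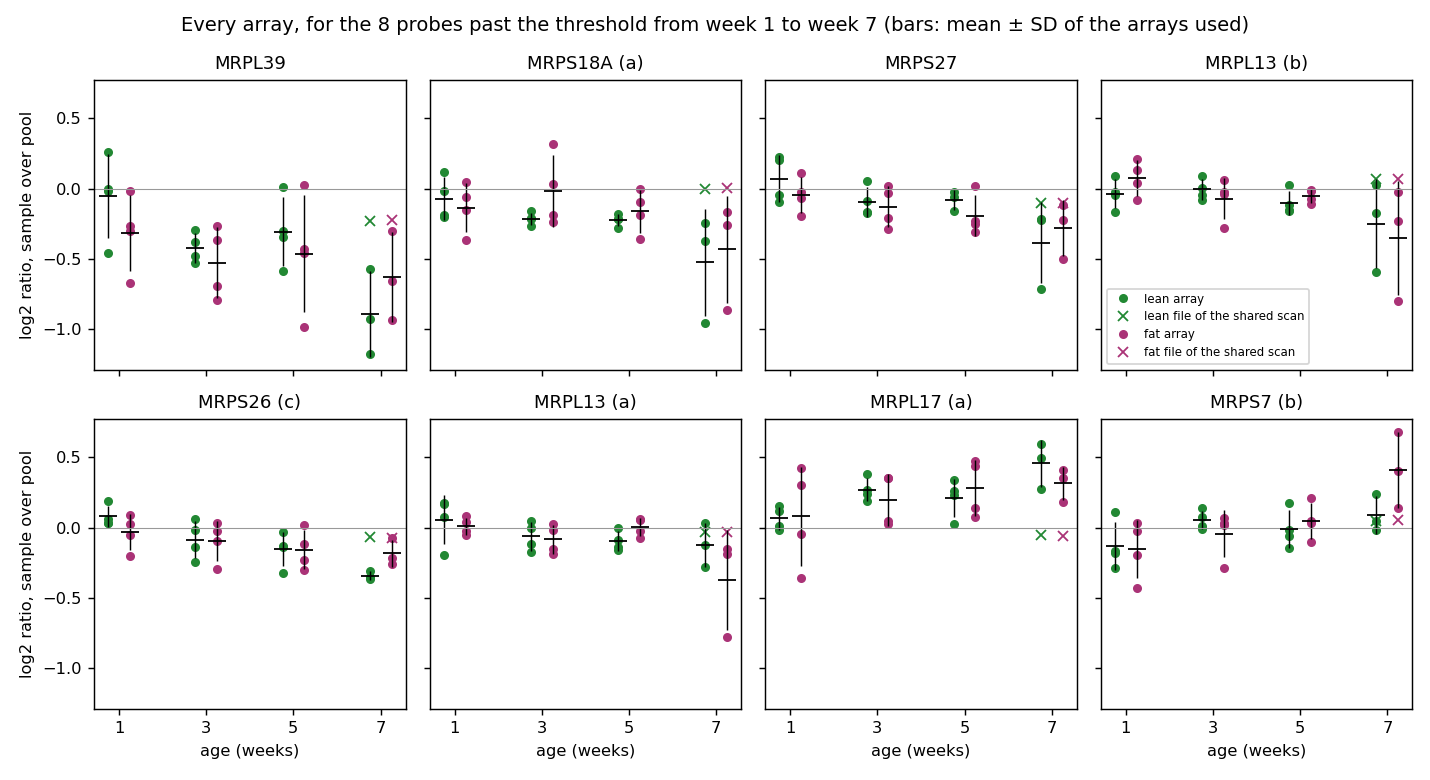
Log2 ratio of sample over pool on every array for the 8 probes that passed from week 1 to week 7, by age in weeks, lean in green and fat in purple. Black bars are the mean and SD of the arrays used, and crosses are the 2 files of the shared scan, which were not used. The lowest points at week 7 in MRPS18A probe a and MRPL13 probes a and b belong to lean replicate 3 or fat replicate 4, and the crosses lie nearer to 0 than the means of week 7 in all 8 panels.

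Other small subunit members had changes of like size that did not pass. MRPS21 had a change of -0.44 with an SE of 0.19 (adjusted p = 0.117 with limma), and its 6 arrays at week 7 ran from -1.56 to -0.09. MRPS16 had -0.35 (adjusted p = 0.0627), and its lowest array at week 7 read -1.49 against a median of -0.26. MRPS31 and MRPS25 had -0.30 each (adjusted p = 0.0923 and 0.0589). These 4 had -0.10, -0.14, -0.09 and -0.23 without the pair of arrays, in the order MRPS21, MRPS16, MRPS31 and MRPS25, with adjusted p from 0.248 to 0.811. On the other side were MRPS23 at 0.19, MRPS15 at 0.15, MRPS6 probe a at 0.11 and MRPS12 at 0.03, which became 0.08, 0.13, 0.15 and 0.15 without the pair. No member's arrays of week 1 and week 7 were fully apart with both lines together, against 2.33% of all tested probes. For the members whose arrays of these ages were apart within 1 line, the share of all tested probes is not given here.

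The subunits, taken by symbol, and the classes by origin gave like counts. By brightest probe, 2 of 16 large subunit genes fell and 1 rose, with a median change of -0.12. For the small subunit 2 of 16 fell and none rose, with a median of -0.06. These 2 were MRPS27 and MRPS18A, and MRPS18A is counted there by symbol though it sits in the large subunit in mammals. Of the 19 genes with bacterial homologs 2 fell and 1 rose (median -0.11), and of the 13 others 2 fell (median -0.09). Over all tested genes 8.21% fell and 9.38% rose. Without the pair of arrays none of the 32 genes passed by brightest probe, against 4.58% of all tested genes, and the medians were -0.11 and -0.05 for the subunits and -0.09 and -0.08 for the classes. An unadjusted p under 0.05 was then found for 5 of the 32, or 15.6%, against 17.4% of all tested genes.

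The change was also taken step by step. No member passed from week 1 to week 3, where 75 probes did (0.511%), from week 3 to week 5, where 9 did (0.0613%), or from week 5 to week 7, where none did (0%). At an unadjusted p under 0.05 the members numbered 6, 0 and 9 in these steps, against 6.66%, 2.82% and 17.7% of all tested probes. Their median changes were -0.03, 0.00 and -0.07. Between weeks 1 and 3 the smallest p was that of MRPL12, at -0.23 (adjusted p = 0.461 with limma). Between weeks 5 and 7 it was that of MRPS25, at -0.29 (adjusted p = 0.228). A joint test of any difference between ages called none of the 43, against 5.34% of all tested probes, and 12 members, or 27.9%, had an unadjusted p under 0.05, against 21.1%. MRPS7 probe b came closest, at an adjusted p of 0.0555 with limma. Without the pair of arrays no member passed in any of the 3 steps or in the joint test, against 0.702%, 0.0709%, 0% and 3.35% of all tested probes, and at an unadjusted p under 0.05 the members numbered 7, 0, 1 and 5, against 9.10%, 3.56%, 3.30% and 12.5%.

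Within lean birds alone, 3 members passed from week 1 to week 7, or 6.98% against 5.49% of all tested probes. These were MRPL39 at -0.84, MRPS27 at -0.45 and MRPS26 probe c at -0.42. Within fat birds 2 passed, or 4.65% against 3.05% of all tested probes. They were MRPS7 probe b at 0.56 and MRPL12 at -0.47. Without the pair of arrays that stood apart, none passed in either line, against 1.28% and 0.383% of all tested probes. At an unadjusted p under 0.05 there were then 4 in lean and 3 in fat birds, or 9.30% and 6.98% of the members, against 13.1% and 9.12% of all tested probes. The members named for one line were not shown to differ between lines, since the test of line by age called none.

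Where several probes read 1 gene, they often disagreed. Among the 12 pairs of such probes the residuals correlated from -0.416 to 0.613, with a median of 0.0521, as a description over the same arrays. The median was -0.00296 among 891 pairs of probes of different member genes. In 7 of the 12 pairs the changes from week 1 to week 7 had opposite signs. In 5 pairs 1 probe passed and the other did not. The shares of such pairs among all genes with several probes are not given here, so these counts cannot be called particular to the members. The widest gap was 0.64 between the probes of MRPS18A, followed by 0.46 for MRPS7. MRPL13 was the only gene in which 2 probes passed. The 2 probes of MRPS17 gave -0.17 and -0.16, and neither passed. Which probe of a pair reads its gene was not tested.

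**Figure D4:**
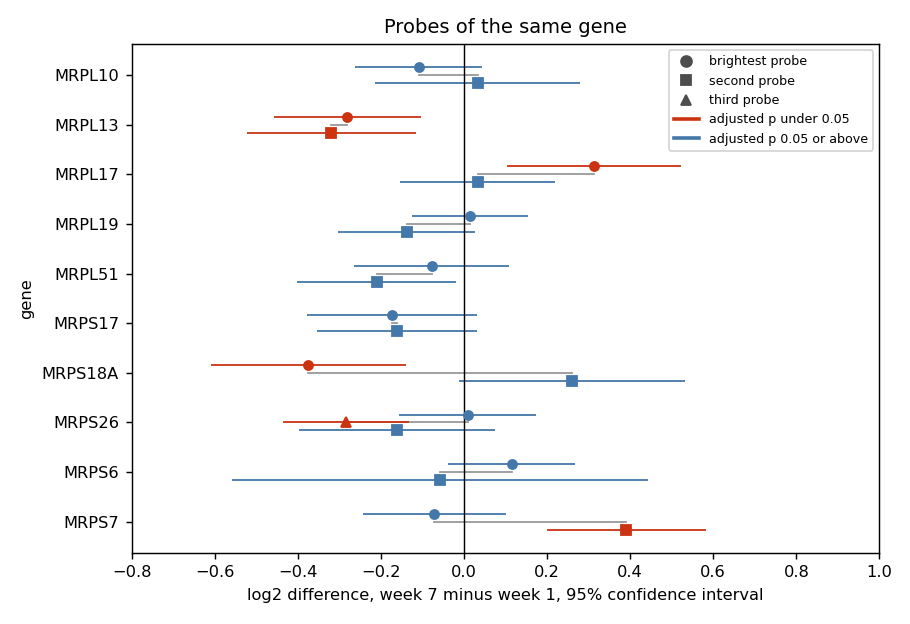
Change from week 1 to week 7 on the log2 scale, with 95% confidence intervals, for the 21 probes of the 10 genes with several tested probes. Circles, squares and triangles are probes a, b and c of a gene, and red marks an adjusted p under 0.05. Both probes of MRPL13 lie near -0.3, while those of MRPS18A and MRPS7 lie on opposite sides of 0.

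Other genes of mitochondrial translation and of steps around it were counted by brightest probe, and 26 were measured. Most were translation factors, ribosome subunits, assembly factors or tRNA synthetases. The 26 also include LRPPRC, PNPT1, POLRMT, SLIRP and TFAM, of mitochondrial transcription and RNA. SPG7 and YME1L1, of protein insertion and quality control, are among them too, and none of these named here passed. From week 1 to week 7, 2 fell and 2 rose, or 15.4% against 17.6% of all tested genes. GFM1, the elongation factor that moves the ribosome along the message, changed by -0.44 (SE 0.13, adjusted p = 0.0223 with limma). PARS2, which loads proline on its mitochondrial tRNA, changed by -0.39 (adjusted p = 0.0274). MTRF1, a release factor, changed by 0.32 (adjusted p = 0.0287), and MTG1, a GTPase of ribosome assembly, by 0.45 (adjusted p = 0.00897). DAP3, PTCD3 and CHCHD1, small subunit proteins with names of other origin, gave -0.04, -0.04 and -0.14 and did not pass. MTG1 alone of the 26 passed without the pair of arrays, at 0.44 (adjusted p = 0.042), or 3.85% against 4.58% of all tested genes, and GFM1, PARS2 and MTRF1 had -0.16, -0.19 and 0.25. None of the 26 passed between the lines with limma, where 0.488% of all tested genes did, and 3 had an unadjusted p under 0.05 (11.5%, against 16.2%).

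Of 41 genes of oxidative phosphorylation, 8 fell and 2 rose from week 1 to week 7 (24.4%), with a median change of -0.09, where 17.6% of all tested genes passed. Of 48 genes of the cytosolic ribosome, 3 rose and none fell (6.25%), with a median of 0.02, beside -0.10 for the 32 genes of the mitochondrial ribosome. Without the pair of arrays 1 of the 41, SDHD of complex II, rose and none fell (2.44%), and none of the 47 cytosolic genes then measured passed, where 4.58% of all tested genes did. At an unadjusted p under 0.05 there were then 9 and 4, against 17.4% of all tested genes, and the medians of the 3 lists were -0.06, 0.03 and -0.09. The difference between these lists was not tested. Between the lines none of the 41 and none of the 48 passed with limma, where 0.488% of all tested genes did. An unadjusted p under 0.05 was found for 8 and 9, or 19.5% and 18.8%, against 16.2% of all tested genes.

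Markers of other cells were set beside the age change, each list by its mean level over the measured markers on an array. The mean level of 6 markers of dividing cells ran from 0.256 to 0.638 on the arrays of week 1 and from -0.555 to -0.176 at week 7, with 4 of the 6 past the threshold downwards and PCNA upwards. That of 4 measured markers of red blood cells, of 8 listed, ran from 0.335 to 0.725 and from -0.774 to -0.186, with 3 of the 4 past the threshold. For 5 markers of muscle, cartilage and bone, of 9 listed, it ran from -0.250 to 0.232 and from -0.713 to -0.143, with COL2A1 past the threshold. For 9 measured markers of pituitary hormone cells, of 12 listed, it ran from -0.505 to 0.070 and from -0.391 to 0.316. CHGB and SCG5 were past the threshold upwards. TSHB and POU1F1 had 0.633 and 0.219 and did not pass. GH, FSHB, PRL, POMC and CGA had -0.435, -0.338, -0.173, -0.118 and -0.0992 and did not pass either. For 6 measured markers of lymphocytes and macrophages, of 8 listed, the mean level ran from -0.443 to -0.00744 and from -0.197 to 0.225, with CD74 past the threshold upwards. For the 5 markers of fibroblasts and matrix it ran from -0.0815 to 0.356 and from -0.0078 to 0.206. COL1A1 and COL1A2 were past the threshold downwards, while COL3A1, DCN and LUM had 0.288, 0.486 and 0.0715 and did not pass. For 5 markers of glia and neurons, of 6 listed, the mean level ran from -0.551 to 0.00608 and from -0.622 to -0.321, with GPM6B past the threshold downwards and SOX10 upwards. Without the pair of arrays that stood apart, SLC4A1 of the red blood cells, CHGB, CD74, COL1A1 and COL1A2 no longer passed. Their adjusted p with limma was then 0.12, 0.0864, 0.0544, 0.378 and 0.104. The other markers that had passed still did. The levels of week 1 and week 7 did not overlap for dividing cells and red blood cells, and did for the other 5 lists. A level on these arrays is relative to the pool, so no marker has a true 0. Their part in the members' change was not tested. No header day held arrays of both week 1 and week 7, so within a day the age change cannot be had, and with the day as a random block 6 of the 43 probes passed, against 11.1% of all tested probes.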

How the data were processed

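Per the file headers, TIGR Spotfinder 2.2.4 made the deposited file of each array. As deposited, these files give the intensity and the background of a spot in each dye as sums over its pixels, its area, and a quality score and mark, with no normalization. The authors also deposited a table of log2 ratios for the whole series, whose normalization is not given in the sources used here. It served as an alternative only, and its columns correlated across probes with the ratios computed here at 0.388 to 0.647.

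Spots with a bad quality mark were left out. The file of fat week 7 replicate 2 had background already subtracted, and it was added back. Intensities per spot area were corrected with normexp (offset 50), and log2 ratios were normalized by loess within each array, with R 4.3.3, limma 3.58.1 and statmod 1.5.0, and plotted with matplotlib 3.10.9. The median signal was 3.68 to 9.02 times background for Cy3 and 8.33 to 18.0 times for Cy5. The number of arrays limits the precision. A probe was tested when usable on at least 24 arrays and on 2 of each group.

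The 8 groups each had a mean in 1 limma model, fitted on 30 arrays with 22 residual degrees of freedom and tested on simulated data. The named members are those past the threshold in any comparison, the 6 genes with the largest line differences and age changes in each direction by brightest probe, genes whose probes disagree and the smallest p of the interaction. The members and the lists were chosen with earlier results of these data known. Symbols are those of the probe table, and all 37 member symbols matched RefSeq's current ones. No genome position is given, since no build is stated for the probes. Alternatives changed the arrays used, the background correction, the normalization, the filters, the weights and the blocks, or used the authors' table.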

Additional observations from a re-analysis of the deposited data

Results flagged for a closer look

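In groups of 4 arrays, 6 of the 131 groups examined for the named probes held 1 array far from the other 3, and chance flags about 1 in 20 groups. MRPS12, of the decoding centre, had 2 such values. It read 0.42 in fat week 1 replicate 4, where the others lay at -0.166 to -0.142, and 0.985 in lean week 5 replicate 2, where the others lay at -0.212 to -0.148. MRPS31 read -0.864 in lean week 1 replicate 1, against -0.200 to -0.0995 in the others. MRPS16 read -0.293 in fat week 1 replicate 3, against -0.0874 to -0.0584. MRPS7 probe b read -0.289 in fat week 3 replicate 2, against 0.016 to 0.0688. MRPL12 read 0.396 in lean week 5 replicate 4, against 0.052 to 0.0934.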

How the results depend on the processing

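No member passed between the lines over all ages, at weeks 1, 3 and 5, in the interaction or in any age step under any of the alternatives run. At week 7 the line count was 2 when lean replicate 1 was dropped (6.70% of all tested probes called), 4 when fat replicate 3 was (8.24%), and 0 to 4 over all arrays left out in turn. From week 1 to week 7 the count of 8 (15.8%) became 5 with both arrays of the shared scan kept (8.94%), 4 with only the fat one (11.2%), 1 with a loess per grid block (MRPS26 probe c; 8.17%), 5 with arrays scaled to each other (8.32%), 0 in the authors' table (5.53%), 4 with array weights (6.87%) and 1 with only the compared groups fitted (4.76%). The count rose to 12 of 39 with the dimmest probes left out (21.2%) and to 9 with no background correction (15.9%). It was 3 to 13 with arrays or replicate numbers left out in turn. The count was 13 when lean week 7 replicate 4 was dropped (21.1%) and 5 when fat week 1 replicate 2 was (9.58%). It was 4 when either array of the pair below was dropped (7.30% and 6.98%), and 3 without replicate number 2 or 3 (6.99% and 6.17%). Leaving out the pair of lean week 7 replicate 3 and fat week 7 replicate 4 (1 call, 4.17%) was chosen after seeing the data. The array weights of this pair, 0.153 and 0.174, were the lowest.

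In lean birds the count was 3, where 5.49% of all tested probes were called. It became 0 with both arrays of the shared scan (2.53%) or only the lean one (2.6%). It was also 0 in the authors' table (2.01%) and with arrays scaled to each other (0.769%). With only the compared groups (1.23%) or without the pair (1.28%) it was 0 too. It was 1 with array weights (3.08%) and 5 with the dimmest probes left out (9.24%). With arrays left out it ran from 0, as without lean week 7 replicate 3 (0.75%), to 6, as without fat week 7 replicate 4 (9.07%). In fat birds the count was 2, where 3.05% of all tested probes were called. It became 0 with grid loess (1.38%), the authors' table (0.685%) or array weights (0.64%). It was also 0 with only the compared groups (0.3%) or without the pair (0.383%). It was 1 with both arrays of the shared scan (1.99%) or with poor spots kept (1.24%). With the header day as a block (2.15%) it was 1 as well. It was also 1 with 1 probe per gene (4.18%), a fit that leaves out MRPS7 probe b because it is not its gene's brightest. With arrays left out it ran from 0 to 7. It was 0 without fat week 7 replicate 4 (0.324%) and 7 without replicate number 3 (7.28%). Any difference between ages gave 1 call with grid loess (4.51%), with the dimmest probes left out (7.72%) or with array weights (4.75%). The count was 0 to 5 with arrays left out, with 5 without fat week 7 replicate 1 (9.45%).

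Arrays of the same replicate number correlated at -0.203 to 0.408, with a median of 0.143 against -0.0351 for other numbers. As 63 of 99 such pairs, and not all, were over 0.1, the arrays were not treated as paired. This rule does not show that arrays of the same number share nothing, since single correlations vary. Of 30 arrays, 20 correlated best with their own number, a hint from the data and not from the design. With the replicate number as a block, 10 members passed from week 1 to week 7 (17.1% of all tested probes), 5 in lean birds (9.27%) and 1 in any difference between ages (6.34%). With this block no member passed between the lines over all ages or at week 7. The shares of all tested probes there were 2.04% and 4.85%, against 0.694% and 0.0204% without the block.

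No member past the threshold from week 1 to week 7 changed sign. Of the others named, MRPS12 became -0.0171, -0.00844 and -0.00797 with both arrays of the shared scan, with the lean one and with no background correction, and ran from -0.0437 to 0.112 with arrays left out. MRPL15 became -0.0248 with grid loess, -0.129 in the authors' table and -0.0234 without the pair. MRPS16 became 0.00168 with grid loess, and its line difference ran from -0.243 to 0.00493 with replicate numbers left out. MRPS23 became -0.0194 and the line difference of MRPL12 0.174 in the authors' table. The cause of these shifts was not tested.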
